A study of Mus musculus with 2 samples.

Results

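Mir148a, Mir148b and Mir152 form a family of microRNA (miRNA) genes whose products share 1 seed, the short stretch near the 5′ end through which a miRNA finds its targets. They were taken as the genes that GENCODE M21 names Mir148a, Mir148b or Mir152, which gave 3 of the 2202 miRNA genes counted. Their identifiers are ENSMUSG00000065505.1, ENSMUSG00000065560.1 and ENSMUSG00000065515.1. The data came from whole adrenal tissue of B6CASTF1/J males at an age of 2 months, which are first-generation hybrids of a laboratory strain and a castaneus-derived strain. There was 1 group of 2 animals, animal 3 (replicate 1) and animal 4 (replicate 2), with 1 small RNA library each and no treatment, second genotype or second tissue. The labels number the animals apart but carry the same donor identifier for both. The exact tests of reads given here hold counting error only and no spread between animals or libraries. The comparisons open to this design are those between the 3 genes and between the 2 libraries. The files held miRNA genes only, so protein-coding genes that define the adrenal gland were not measured here.

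A miRNA gene is transcribed into a longer RNA with a hairpin, from which Drosha and Dicer cut a short product that an Argonaute protein then carries to messenger RNAs. Pairing of the seed with a site in the 3′ untranslated region lowers the stability or translation of the messenger. Products of this family are known for acting on the cholesterol exporter Abca1 and on the DNA methyltransferase Dnmt1. The adrenal cortex draws on cholesterol for steroid hormones, and miR-148a is best known as an abundant miRNA of liver.

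The sequences show what the 3 genes share. The products of the 3′ arm are printed from RefSeq (GRCm38.p6), 5′ to 3′, with the seed (bases 2 to 8) in capitals.
miR-148a-3p: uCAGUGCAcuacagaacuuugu
miR-148b-3p: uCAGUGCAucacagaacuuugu
miR-152-3p: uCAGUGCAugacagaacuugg
All 3 genes had an entry in that table. Counted from 1 at the 5′ end, miR-148a-3p and miR-148b-3p were identical at 20 of 22 positions and differed by C9U and U10C. Between miR-148a-3p and miR-152-3p the differences were C9U, U10G and U20G over 21 positions, and between miR-148b-3p and miR-152-3p they were C10G and U20G. Differences from miR-148a-3p thus began directly after the seed, and those between miR-148b-3p and miR-152-3p began 1 base later. Among 1679 mature mouse miRNAs of the table, no other carried this seed.

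Compared without gaps, the products of the 5′ arm matched at a smaller share of positions. They are shown because their seeds, again in capitals, divide the family.
miR-148a-5p: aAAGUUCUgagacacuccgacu
miR-148b-5p: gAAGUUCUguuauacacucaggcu
miR-152-5p: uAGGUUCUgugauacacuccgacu
The 5′ arms of Mir148a and Mir148b had 1 seed in common, and that of Mir152 had another. Position by position from the 5′ end, without gaps, miR-148a-5p and miR-152-5p matched at 12 of 22 positions. These products differ in length, at 22 and 24 bases, and end in the same letters, acacuccgacu. A comparison that allows a gap would therefore match them at more positions. The deposited counts are per gene and do not separate the arms.

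The counted intervals were the hairpins, which are printed with the 3′ product in capitals. RefSeq and GENCODE M21 gave the same hairpin sequence and the same mm10 coordinates for all 3 genes.
Mir148a, chr6:51269812-51269910, minus strand: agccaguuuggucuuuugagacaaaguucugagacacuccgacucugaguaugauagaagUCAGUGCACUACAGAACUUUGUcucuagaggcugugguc
Mir148b, chr15:103285125-103285221, plus strand: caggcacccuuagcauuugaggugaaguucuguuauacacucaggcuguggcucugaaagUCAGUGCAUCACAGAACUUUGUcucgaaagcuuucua
Mir152, chr11:96850393-96850465, plus strand: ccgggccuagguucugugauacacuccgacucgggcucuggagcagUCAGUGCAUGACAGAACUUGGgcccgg
No stretch of 18 bases of these hairpins occurred in another of the 1005 hairpins scanned. Among 141767 annotated transcripts, scanned on both strands, 1 such stretch occurred, in transcripts of Medag. It is bases 39 to 56 of the Mir148b hairpin, which overlap the end of the 5′ product (bases 24 to 47). It ends before the 3′ product. Reads that align to several places were left out of the counts. The genome outside transcripts was not scanned here.

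Mir148b and Mir152 lie in a pair of related hosts. Copz1 and Copz2 encode forms of the zeta subunit of coatomer, the coat of vesicles that move between Golgi and endoplasmic reticulum. Mir148b lay in intron 1 of Copz1, on the same strand and outside every exon, in an intron of 16159 bases and 12183 bases after the first exon. Mir152 lay in intron 1 of Copz2, also on the same strand and outside exons, in an intron of only 676 bases and 396 bases after the first exon. The first-listed coding transcript of each host, drawn in the map, had 9 exons. Mir148a overlapped no other annotated gene, and its neighbours on either side were the long non-coding RNA gene Gm32479 at 13621 bases and the pseudogene Gm44402 at 302306 bases. None of the 3 genes had another miRNA gene within 10000 bases or a gene on the opposite strand. The host messenger RNAs were not measured here.

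**Figure D1:**
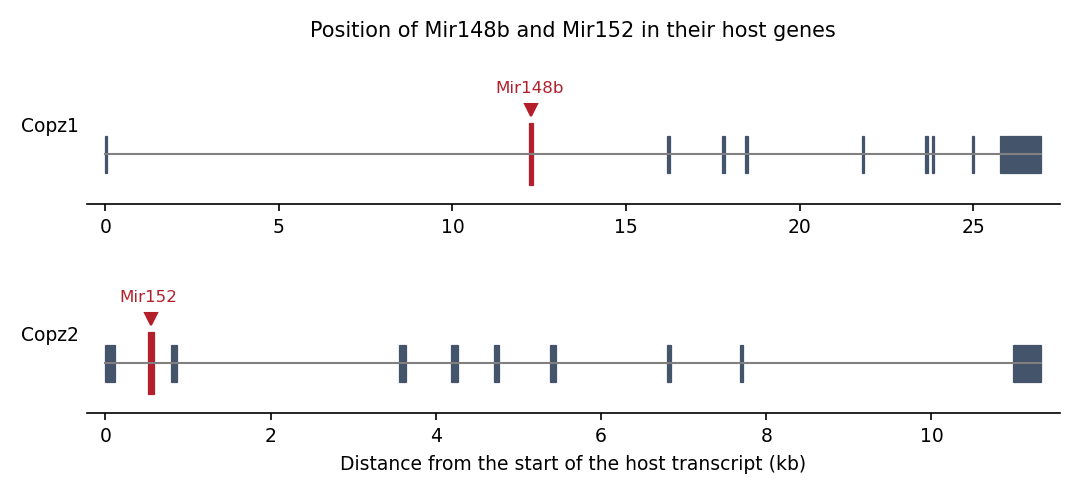
Map of Mir148b in Copz1 (top) and of Mir152 in Copz2 (bottom), with the distance from the start of the host transcript in kb on each x axis. Dark boxes are exons, drawn at least as wide as their outline, and the red bar is the miRNA hairpin, which lies in intron 1 of both hosts.

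Levels are given as counts per 1000000 (CPM), the reads of a gene divided by the library's sum over all miRNA genes (sense reads only), times 1000000. These totals were 5752428 reads in replicate 1 and 3333149 in replicate 2. A floor of 3 counts was set for a count of 0, which is 0.522 CPM in the library of replicate 1 and 0.900 CPM in that of replicate 2. The interval described next would reach 0.641 and 1.11 CPM in these libraries for a count of 0. Intervals for single libraries are exact Clopper-Pearson intervals at 95%. They cover counting error only, as the reads carry no molecular identifiers and may be copies of 1 molecule. A read covers a whole product, so counts were not divided by hairpin length.

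Mir148a led the family in reads in both animals, before Mir152 and, far lower, Mir148b. How evenly the library preparation captured the different products was not measured here. Mir148a had 1194 reads in replicate 1 and 1291 in replicate 2, or 208 CPM (interval 196 to 220) and 387 CPM (366 to 409). It was higher in replicate 2, and the intervals were far apart. Mir152 had 970 and 687 reads, or 169 CPM (158 to 180) and 206 CPM (191 to 222). Mir148b had 255 and 211 reads, or 44.3 CPM (39.1 to 50.1) and 63.3 CPM (55.0 to 72.4). For these genes too, replicate 2 had the higher CPM and the intervals did not overlap. CPM divides by total counts. Scaled that way, 170 of all 389 genes tested were called lower in replicate 1 and 85 higher (exact binomial test, described below).

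Over both animals the levels were 297 ± 127 CPM for Mir148a, 187 ± 26.5 CPM for Mir152 and 53.8 ± 13.4 CPM for Mir148b (SD, n = 2). By mean CPM these were ranks 128, 155 and 215 of the 2202 annotated genes. Of these, 372 genes reached 2 CPM in both libraries, and the 3 family genes were among them. Together the family held 421 CPM in replicate 1 (404 to 438) and 657 CPM in replicate 2 (630 to 685), that is 0.0421% and 0.0657% of the counts at miRNA genes. The family was thus present well above the detection limit and at a middling level for this tissue. All of its reads lay on the gene's own strand, and the opposite strand had 0 reads at each gene in both libraries.

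**Figure D2:**
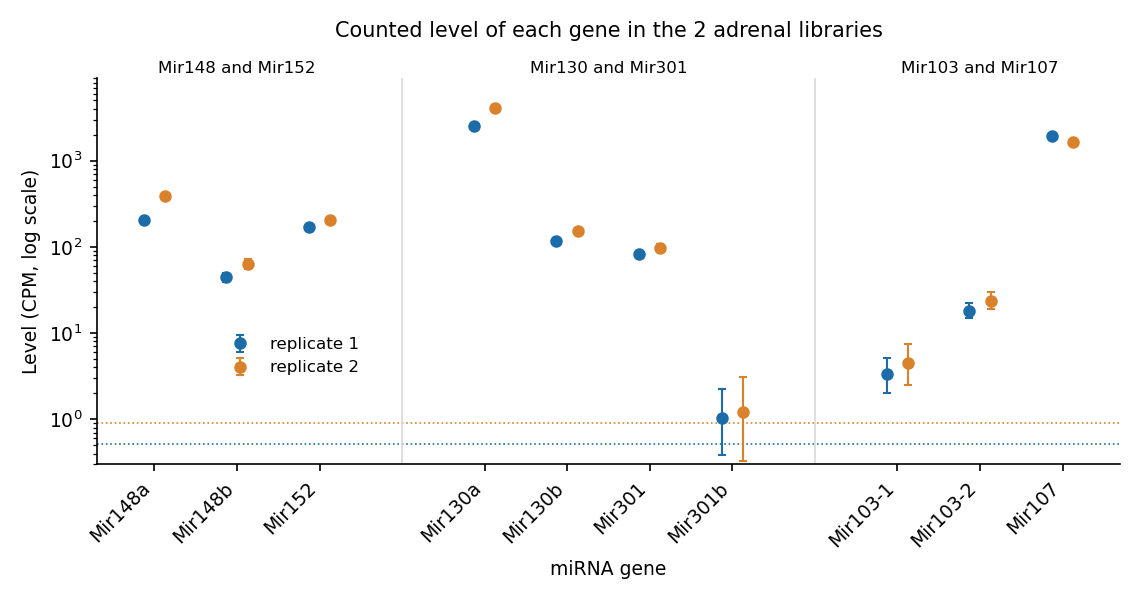
Level in CPM (log axis) of the 3 family genes and of the families Mir130 and Mir301 and Mir103 and Mir107 in each library. Bars are exact 95% intervals, and dotted lines mark the floor of 3 counts set for a count of 0. Mir148a, Mir152 and Mir148b follow in this order in both libraries, at 208, 169 and 44.3 CPM for replicate 1 and at 387, 206 and 63.3 CPM for replicate 2.

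The gap between Mir148a and Mir148b was large beside the spread of the animals, and that between Mir148a and Mir152 was not. Mir148a exceeded Mir148b 4.68-fold in replicate 1 and 6.12-fold in replicate 2, a mean of 2.42 ± 0.27 on the log2 scale (SD, n = 2; 0.5 counts added to each value). Mir152 exceeded Mir148b 3.80-fold and 3.26-fold. Mir148a exceeded Mir152 only 1.23-fold in replicate 1 and 1.88-fold in replicate 2, a mean log2 difference of 0.60 ± 0.43, and the difference of their mean CPM was within the SD of Mir148a. The order was the same in both libraries. With 2 animals a two-sided exact sign permutation cannot give a p below 0.5, so no order was tested.

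The make-up of the family differed between the 2 libraries by more than counting error. This comparison needs no scaling of 1 library to the other, as it uses shares of the 3 genes' own reads. Mir148a held 49.4% of the family's 2419 reads in replicate 1 (interval 47.3 to 51.4) and 59.0% of 2189 reads in replicate 2 (56.9 to 61.0). Mir152 had the larger share in replicate 1, with 40.1% (38.1 to 42.1) and 31.4% (29.4 to 33.4). Mir148b was the smallest part, at 10.5% (9.35 to 11.8) and 9.64% (8.43 to 11.0), and these intervals overlapped.

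**Figure D3:**
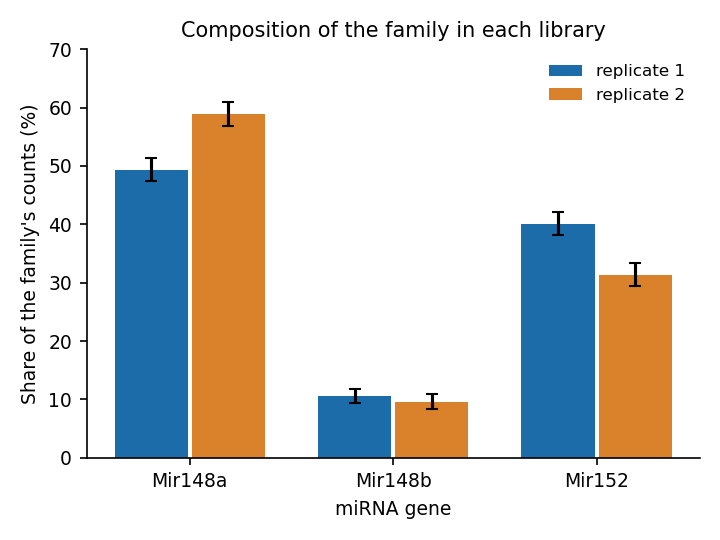
Share of each gene in the summed reads of Mir148a, Mir148b and Mir152, in percent, for each library, with exact 95% intervals as error bars. Mir148a held 49.4% in replicate 1 and 59.0% in replicate 2, and Mir152 held 40.1% and 31.4%.

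Fisher's exact test of reads (two-sided, 3 pairs of genes, Benjamini-Hochberg adjusted) compared these libraries, not conditions. Pairs of other genes were not tested, so how common such differences are among them is not known. In the test of single genes given below, 59.1% of 389 genes were called. The ratio of Mir148a to Mir152 was 1.53 times as large in replicate 2 as in replicate 1 (95% interval 1.35 to 1.73, adjusted exact p = 1.15e-10). The ratio of Mir148a to Mir148b was 1.31 times as large (1.07 to 1.59, adjusted exact p = 0.0130). For the genes hosted by the coatomer pair, the ratio of Mir152 to Mir148b was 0.856 times as large in replicate 2 (0.696 to 1.05, adjusted exact p = 0.152), a difference that was not detectable at this depth.

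Each gene was then compared between the libraries after TMM scaling, with a two-sided exact binomial test over the 389 genes with 10 or more counts in mean, adjusted by Benjamini-Hochberg over all of them. Ratios are replicate 1 over replicate 2 on the log2 scale, with a standard error (SE) for counting only. Mir148a was lower in replicate 1, at -0.70 (SE 0.06, adjusted exact p = 7.70e-33). Mir148b was also called lower, at -0.32 (SE 0.13, adjusted exact p = 0.0350). That call was lost without the filter on low counts, where the ratio was again -0.32 and the adjusted exact p was 0.0640. Mir152 had a ratio of -0.09 (SE 0.07, adjusted exact p = 0.297) and was not called.

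Calls of this kind were common among miRNA genes. The family had 2 of 3 genes called, while 59.1% of all 389 genes were called in either direction and 28.3% were called lower in replicate 1. Among the 389 ratios, 57 were lower than that of Mir148a, 111 lower than that of Mir148b and 162 lower than that of Mir152, with a median over all of 0.01. The variation between the 2 libraries, as a coefficient estimated by edgeR with both taken as 1 group, was 0.361. It holds differences of animals and of library preparation alike. With that variation in the test (edgeR's exact test, 1 library against 1), 4 of all 389 genes and 0 of 3 family genes were called. The unadjusted exact p of that test were 0.354 for Mir148a, 0.684 for Mir148b and 0.907 for Mir152. As the variation came from the libraries compared, few calls were open to this test, and it cannot show that they are alike. Scaling by total counts instead of TMM lowered all ratios by 0.20. Mir152 was then called too, at -0.29, where 255 of all 389 genes were called.

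**Figure D4:**
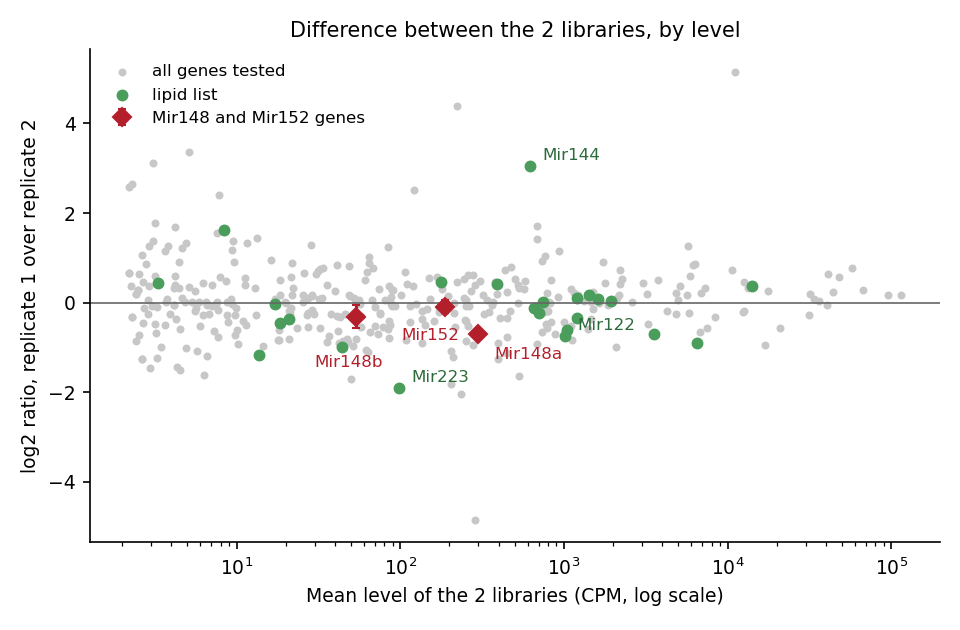
Log2 ratio of replicate 1 over replicate 2 (y axis) against mean level in CPM (x axis, log scale) for the 389 genes tested, with the lipid list in green and the 3 family genes as red diamonds with 95% intervals for counting error as bars. Mir148a at -0.70, Mir148b at -0.32 and Mir152 at -0.09 lie within the cloud of all genes.

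Markers of other cell types were set beside the difference of Mir148a. Mir122, the main miRNA of hepatocytes and the only gene of its list, had 690 and 1331 CPM in replicates 1 and 2 and a log2 ratio of -0.75. Its part in the difference of Mir148a was not tested. The white blood cell list (Mir142, Mir146, Mir150, Mir155 and Mir223) summed to 2956 and 3251 CPM, with 3 of 5 genes called higher in replicate 1 and 2 lower, where 59.1% of all genes tested were called, and its part was not tested either. The exocrine pancreas list had Mir216a, Mir216b and Mir216c at 0 reads in both libraries and Mir217 at 3 and 1 reads. The red blood cell list (Mir451a, Mir144 and Mir486) went the other way, with 22813 and 901 CPM. The part of these genes in the difference of Mir148a was not tested. In whole tissue, fewer cells of a type and less RNA per cell cannot be told apart.

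The genes nearest to each member in level over the 2 libraries were found by the distance of log2(CPM + 1), which describes 2 values a gene and nothing more. Mir148a lay closest to Mir369 (174 and 387 CPM, distance 0.25), Mir500 (197 and 324 CPM) and Mir542 (198 and 304 CPM). Mir152 lay closest to Mir25 (174 and 202 CPM, distance 0.05), Mir30b and Mir503. Mir148b lay closest to Mir181a-1 (47.8 and 67.8 CPM, distance 0.14), Mir204 and Mir24-1. Mir181a-1 and Mir24-1 carry a copy number in their symbol, and multimapped reads are not in their counts.

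A related family shares most of the seed in another frame. Products of Mir130a, Mir130b and Mir301 carry the family's seed letters shifted by 1 position, with the first of these letters outside their own seed. A site for one family can thus overlap a site for the other. They are printed with their own seed (bases 2 to 8) in capitals.
miR-130a-3p: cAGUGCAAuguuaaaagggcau
miR-130b-3p: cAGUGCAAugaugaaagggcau
miR-301a-3p: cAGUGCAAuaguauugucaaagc
In replicates 1 and 2, Mir130a had 2526 and 4045 CPM, Mir130b 117 and 153 CPM and Mir301 82.1 and 97.5 CPM. Mir301b had 6 and 4 reads and was not tested. The sum of these 4 genes was 6.48 times that of the Mir148 and Mir152 family in replicate 1 and 6.54 times in replicate 2. Their leading gene, Mir130a, was also lower in replicate 1 (log2 ratio -0.48, adjusted exact binomial p = 1.09e-167), and Mir130b (-0.19) and Mir301 (-0.05) were not called.

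The families differed in how far 1 gene dominated. Mir130a held 92.7% and 94.1% of the reads of its list and Mir107 held 98.9% and 98.3% of those of Mir103-1, Mir103-2 and Mir107, against 49.4% and 59.0% for Mir148a. Mir103-1 (19 and 15 reads) and Mir103-2 (105 and 79 reads) carry copy numbers and lose reads that aligned to several places, so the share of Mir107 is uncertain. Mir107 was called higher in replicate 1, at a log2 ratio of 0.44. The differences in dominance between families were not tested.

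Other miRNA genes written about in connection with the handling of cholesterol were taken as a list of 26, and 24 of them had enough reads to be tested. Of these 24, 8 were called higher in replicate 1, 10 were called lower and 6 were not called, with a median log2 ratio of -0.08 beside 0.01 over all genes tested. Of all genes tested, 59.1% were called, and the list was drawn up with earlier results of these data known. Scaled by total counts, 5 of its genes were higher, 16 were lower and the median was -0.28, beside -0.19 over all genes. Of all 389 genes, 85 were then higher and 170 lower. With edgeR's exact test, 1 of the 24 was called higher and 0 lower, where 4 of all 389 genes were called. By mean CPM 15 of the 26 stood above Mir148a, the same number above Mir152 and 17 above Mir148b.

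The 6 leading genes of that list were at far higher levels than the family. Mir10b led with 14898 and 13296 CPM in replicates 1 and 2, and Mir125a followed with 4119 and 8839 CPM. Mir27b, whose product is known to act on Abca1, had 2487 and 4632 CPM and a log2 ratio of -0.70, equal to that of Mir148a to 2 decimals. Mir93 had 1821 and 2057 CPM, Mir455 1542 and 1676 CPM and Mir132 1416 and 1449 CPM. Mir33, the classical regulator of Abca1 in an intron of the sterol regulator Srebf2, was lower than every family gene, with 16.9 and 24.9 CPM. The largest called differences in the list were those of the red blood cell gene Mir144 (log2 ratio 3.05) and of the myeloid gene Mir223 (-1.92). Mir26a-1, Mir26a-2, Mir128-1, Mir128-2, Mir30c-1 and Mir30c-2 carry copy numbers, so multimapped reads may be missing from their counts.

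Sites for the shared seed were looked for in the longest annotated 3′ untranslated region of each gene (GENCODE M21 basic transcripts, transcript strand only). The matches searched were TGCACTGA (called 8mer), TGCACTG without the final A (7mer-m8) and GCACTGA without the leading T (7mer-A1). Such a match describes letters and is not evidence of binding. Of 20896 genes, 18.9% had a match of any kind and 3.59% had an 8mer. The genes named next were written about as targets, and such genes are often chosen because of their matches, so a match in them is no independent evidence.

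The sites of Abca1 are shown because this gene ties the family to cholesterol. Each is 30 bases long on the messenger's strand, with the match in capitals.
Abca1, chr4:53033882-53033889, minus strand: aaggaagagcgaggtcttccttTGCACTGt
Abca1, chr4:53033418-53033425, minus strand: ccaagttgctcagaaagtctgaaGCACTGA
Abca1, chr4:53030973-53030980, minus strand: ctgtctgtaatggatctattttTGCACTGg
Coordinates are those of the 8 bases opposite miRNA bases 1 to 8. Abca1 held 2 matches of 7mer-m8 and 1 of 7mer-A1 in 3156 bases, and 37.6% of genes with a region within 20% of that length had some match. In both sites of the kind 7mer-m8, the base before the capitals is T, which makes TTGCACT, the 7mer-m8 match for the Mir130 and Mir301 products.

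Matches of the kind 8mer lay in regions of very different length. Dnmt1 is shown because its site lies from base 23 of a region of only 312 bases, where 1.01% of genes of like length had an 8mer. The AMP-activated kinase gene Prkaa1 had its 8mer from base 1720 of 2967, where 5.83% of genes of like length had an 8mer.
Dnmt1, chr9:20907491-20907498, minus strand: tgctctcacccagagccccacgTGCACTGA
Prkaa1, chr15:5180652-5180659, plus strand: taaaagatgacgctatagtttaTGCACTGA
Tgif2 had an 8mer and a 7mer-m8, Camk2a had 1 match of 7mer-m8, and in Cpt1a these letters did not occur. Of genes of like length, 26.1%, 40.0% and 25.6% had some match for Tgif2, Camk2a and Cpt1a in turn. Among genes of adrenal sterol supply and steroid synthesis, Soat1 and Lipe had 1 match each of 7mer-A1. Some match occurred in 57.2% of genes of like length for Soat1 and in 6.33% for Lipe. Scarb1, Srebf2, Star, Mc2r and Nr5a1 had 0 matches. The messenger RNAs of these genes were not measured here.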

How the data were processed

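Each of 2 libraries was made by the authors from adrenal RNA of a size below 30, per the labels. They deposited raw counts of reads at GENCODE M21 miRNA genes on mm10, per the descriptions that came with each library. Which aligner and trimming they used is not given in the sources used here. The columns have no header, and the one read from its values as own-strand reads was used. Rows that name no gene (66.2% of reads in replicate 1 and 69.0% in replicate 2, of which reads aligned to several places made up 26.2% and 28.8% of all) stayed out of library sizes and tests. All 2202 identifiers matched GENCODE M21 genes.

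With 1 group there are no degrees of freedom for a quasi-likelihood test, so the exact tests named in the report were used, with a threshold of 0.05. Members, lists and rules were chosen with earlier results of these data known, and the lists of liver, pancreas and white blood cell genes after the members' values were seen. Named genes were the 3 members, the 3 nearest genes of each, the 6 highest of the lipid list and its largest called ratios, the related families and the hosts. Mir33 and the listed markers were named in addition. Seed matches of some listed messenger RNAs are not reported here. The binomial test was checked on simulated libraries that held counting error only. That check says nothing about spread between animals or libraries. Alternatives covered the scaling, filter, strand, denominator, added counts, dispersion and each library. Tests ran in SciPy 1.17.1 under Python 3.11.15. Scaling used edgeR 4.0.16, and DESeq2 1.42.0 as an alternative, under R 4.3.3. Tables used pandas 2.3.3, and figures matplotlib 3.10.9.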

Additional observations from a re-analysis of the deposited data

How the results depend on the processing

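No paired analysis was possible because all samples belong to 1 group. The order of Mir148a, Mir152 and Mir148b held in each library alone, and the sign of the 3 ratios between the libraries held under every alternative run for them. Added counts cannot change that order, the unstranded counts of the 3 genes equal those used, and the mean of 2 libraries always moves by less than 1 SD when 1 is left out, so these alternatives say nothing about the stability of the levels and folds. With all reads as the denominator, the mean family sum was 173 CPM rather than 539. Without the filter on low counts, Mir148b had a ratio of -0.32 and an adjusted p of 0.0640 (exact binomial test), which left 1 family gene called. Of all genes, 232 of 750 tested were then called, against 230 of 389 with the filter. Over all alternatives with the exact binomial test, the adjusted p of Mir148b ran from 0.000298 to 0.0640. By total counts Mir152 was called at -0.29, and all tested genes split into 85 higher and 170 lower in replicate 1, against 120 and 110 with TMM. With edgeR's exact test and a common dispersion from the same 2 libraries, the ratios were -0.70 for Mir148a and -0.31 for Mir148b and 0 members were called, with 0 at an unadjusted exact p under 0.05; the exact binomial test called 2. edgeR's test called 4 of 389 genes. The call of Mir148b rests on 466 reads in all, and 2 animals limit every comparison.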

Other observations

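Because the products differ after the seed, the run of letters complementary to a site can differ in length between products. Counted from base 2, the run at the 8mer of Tgif2 covered 9 bases for miR-148a-3p and 7 for the other products, and at that of Dnmt1 8 bases and 7. At the 8mer of Prkaa1 it covered 8 bases for miR-148b-3p and miR-152-3p and 7 for miR-148a-3p. At both 7mer-m8 matches of Abca1 it covered 7 bases for all 3 products. These are letters in the reference, and no binding was measured.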
